A study of Mus musculus with 2 samples.

Results

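Fatty acid oxidation and ketogenesis were followed through 34 genes: the nuclear receptor Ppara, the enzymes that bring fatty acids into mitochondria and shorten them there, 1 enzyme of ketone body formation, peroxisomal enzymes, acyl-CoA thioesterases and further targets of PPAR-alpha. A gene was taken where a probe set named it and no other gene, and all 34 of 34 listed genes were found, among 19938 genes on the array. The study compared hepatocellular carcinoma tissue of wild-type mice (WT) with that of mice deficient in HLF, a liver-enriched transcription factor of the PAR bZIP family. The tumours of both genotypes were induced with DEN (diethylnitrosamine, a chemical liver carcinogen), and the comparison is between tumour tissue and tumour tissue. There was 1 array for each genotype; the type of Hlf allele, the age of the mice and the dose are not given in the sources used here, nor whether a sample came from 1 mouse or from several.

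In liver, fatty acids enter mitochondria as carnitine esters and are shortened by repeated rounds of dehydrogenation, hydration, dehydrogenation and thiolysis; in fasting, much of the acetyl-CoA formed is turned into ketone bodies for export. Peroxisomes run a related pathway with enzymes of their own for very long, branched and other fatty acids. The nuclear receptor PPAR-alpha binds as a partner of RXR to a direct repeat of a short hexamer and raises transcription of genes at nearly every step of both pathways.

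With 1 tumour sample per genotype, no error between tumours, test or p-value could be given; every difference below is between 2 samples and is written as HLF-deficient minus WT on the log2 scale. The arrays held 35556 probe sets. A gene was compared if it lay at or above a floor of 2.98 on at least 1 array, a level taken from odorant, pheromone and taste receptor genes; 14575 genes passed, and all 34 genes described here lay above it on both arrays. The median difference of the genes compared was 0.07 and the SD of their differences 0.39. Where a gene had 2 or more probe sets above the floor, those probe sets gave a per-set SD of 0.24 for the difference, which covers spread within the array pair and not between mice. Each value was also computed under 3 other scalings, which together with the deposited values make the 4 scalings named below: each array centred on its own median, quantile normalization, and removal of a loess trend of the difference on the level. Hlf itself stood at 5.13 in the WT and 3.79 in the HLF-deficient tumour. All 7 hepatocyte markers were strongly expressed in both tumours, with a median difference of 0.12, and Alb stood at 12.55 and 12.41. Eif2s3y, a Y-linked gene, was expressed in both (6.52 and 6.49), and Xist was below the floor in both.

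Promoter sequences bear on these genes because PPAR-alpha and the PAR bZIP factors each have a known binding motif. RefSeq start sites (build GRCm38.p6) were at hand for 28 of the 34 genes and not for Crat, Acaa2, Decr1, Hsd17b4, Vnn1 and Angptl4; windows of 250 bases before to 50 bases after the start were searched on both strands. The 250 bases before the start are printed for Hao2, the gene with the largest difference, for Fabp1 and Acot4, which hold the repeat and differed in opposite directions, and for Hadhb, whose promoter faces that of Hadha. Among the printed genes, the starts used for Hao2 and Acot4 lie inside the RefSeq spans, chr3:98874519-98895376 and chr12:84037254-84044723. Bases before the upstream ends of those 2 spans were not searched. Capitals mark a match to the relaxed direct repeat, the hexamer NGGNCA followed after 1 base by AGGNCA.
Hao2, chr3:98893231-98893480, minus strand: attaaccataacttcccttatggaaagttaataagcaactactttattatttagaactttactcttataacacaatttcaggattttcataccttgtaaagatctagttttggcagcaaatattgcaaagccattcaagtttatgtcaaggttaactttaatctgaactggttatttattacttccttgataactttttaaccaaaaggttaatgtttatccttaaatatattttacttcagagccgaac
Fabp1, chr6:71199629-71199878, plus strand: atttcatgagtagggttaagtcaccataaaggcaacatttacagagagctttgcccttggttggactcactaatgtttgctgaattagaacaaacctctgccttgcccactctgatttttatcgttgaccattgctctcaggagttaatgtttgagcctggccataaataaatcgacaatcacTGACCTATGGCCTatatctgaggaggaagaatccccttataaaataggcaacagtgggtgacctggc
Acot4, chr12:84038129-84038378, plus strand: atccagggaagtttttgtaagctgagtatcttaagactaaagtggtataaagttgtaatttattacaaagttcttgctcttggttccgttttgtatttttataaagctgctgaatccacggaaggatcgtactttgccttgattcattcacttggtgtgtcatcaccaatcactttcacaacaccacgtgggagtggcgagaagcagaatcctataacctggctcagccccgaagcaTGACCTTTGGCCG
Hadhb, chr5:30155003-30155252, plus strand: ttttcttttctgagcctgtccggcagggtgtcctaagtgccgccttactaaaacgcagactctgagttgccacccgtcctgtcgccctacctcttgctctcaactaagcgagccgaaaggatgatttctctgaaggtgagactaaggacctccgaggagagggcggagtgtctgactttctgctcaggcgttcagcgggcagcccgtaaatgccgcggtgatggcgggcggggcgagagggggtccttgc

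The relaxed repeat was found in windows of 3 of the 28 genes, Fabp1, Acot4 and Acox2, and in 0.798% of all 32851 promoter windows. The first count is of genes, some with more than 1 window, and the second is of windows, so they are not directly comparable. In Fabp1 the match read TGACCTATGGCCT, starting at position -67 from the start site, and in Acot4 it read TGACCTTTGGCCG, starting at -13; both are the repeat on the opposite strand. In Acox2 the match TGGACACAGGACA lay at -57 or -237, depending on which of 2 start sites is used. The exact repeat, 2 copies of AGGTCA with 1 base between, was in none of the 28 and in 0.0396% of all windows. The PAR bZIP palindrome TTACGTAA and its variant TTATGTAA were also in none of the 28, and in 0.119% and 0.938% of all windows. The relaxed repeat overlaps the exact one by construction, and a match describes letters only. The Hao2 window, before a start inside the gene's span, stood out in composition. Of its printed bases, 28.4% are G or C, the lowest of the genes searched, against a median of 52.4% over all windows. Hadha and Hadhb are direct neighbours, and 228 bases of their windows are shared.

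Across the 34 genes, the machinery of mitochondrial fatty acid oxidation was nearly level between the tumours, the peroxisomal gene Hao2 was much lower in the HLF-deficient tumour, and PPAR-alpha targets went both ways within 2-fold, with Pdk4 and Fgf21 highest and Ehhadh and Fabp1 lower. Of the 34 genes, 1 was lower by at least 2-fold (a log2 difference of 1) and 0 were higher; over all genes compared, 0.364% were lower and 1.5% higher by that rule. The median difference was 0.05, close to the 0.07 of all genes. Differences were positive for 22 and negative for 12 genes, against 8486 and 6059 of the 14575 genes compared. The split was 27 and 7 with the arrays centred, 15 and 19 after quantile normalization, and 14 and 20 with the loess trend removed. As deposited, 17 of the 34 lay above the median of all genes, and 16, 12 and 12 did under those scalings in that order. Differences smaller than this per-set SD of 0.24 were found for 19 of 34 genes, or 55.9%, against 49.5% of all genes.

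**Figure D1:**
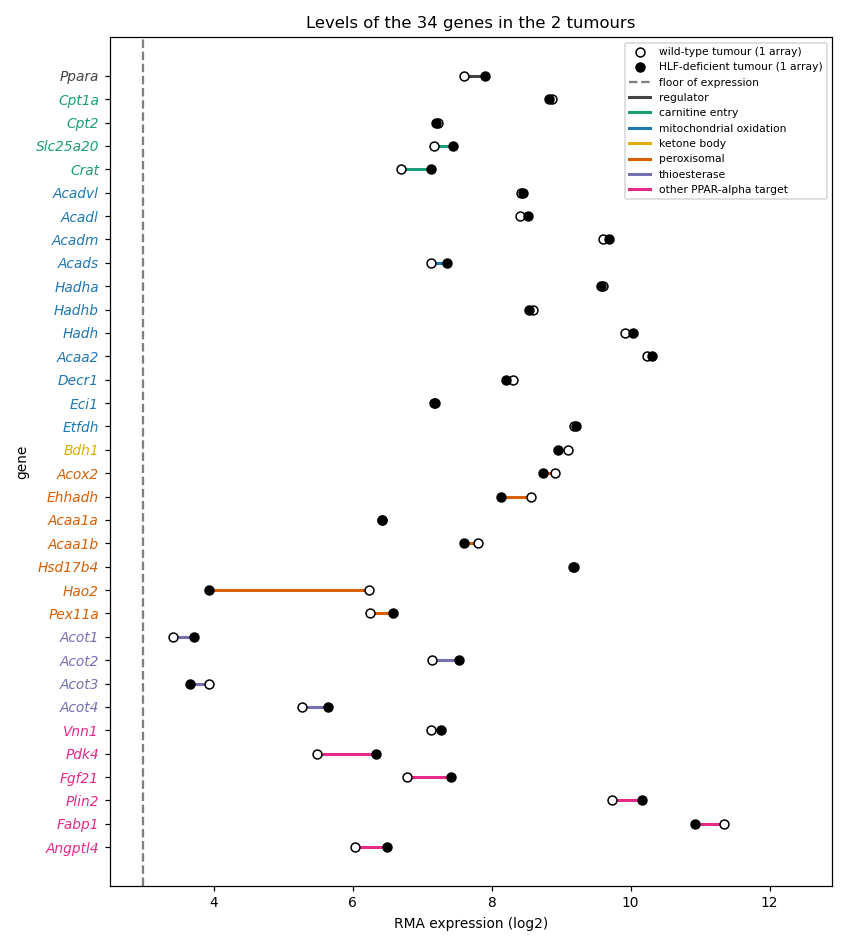
RMA expression (log2, x axis) of the 34 genes (y axis, coloured by role) in the WT tumour (open circles) and the HLF-deficient tumour (filled circles), 1 array each; the dashed line is the floor of 2.98. Hao2 has the widest gap, from 6.23 to 3.93, and in most mitochondrial genes the circles nearly coincide.

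Ppara, the regulator of the pathway, stood at 7.60 in the WT and 7.91 in the HLF-deficient tumour, 0.30 apart or 1.24-fold higher. That difference was positive under each of 4 scalings of the arrays, between 0.16 and 0.43. Among 8 further regulators measured, all lay within 0.5 of zero, as did 84.9% of all genes compared. Med1, a Mediator subunit that serves as a coactivator, had the highest value, 0.41, and Ppargc1b, a coactivator of the PGC-1 family, the lowest, -0.23. Rxra, the obligate partner of PPAR-alpha, was at 0.28.

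As deposited, the carnitine shuttle split into a level pair and a slightly higher pair. Cpt1a, the outer membrane enzyme that commits fatty acids to oxidation, stood at 8.86 and 8.83 (WT first here and below). Cpt2, which rebuilds the acyl-CoA inside, stood at 7.23 and 7.20. Their differences, -0.04 and -0.03, were 0.0053 apart. Slc25a20, the carrier that passes acylcarnitines through the inner membrane, stood at 7.16 and 7.45, and Crat, which makes acetylcarnitine, at 6.70 and 7.13. Crat had the largest difference of the mitochondrial genes, 0.42 or 1.34-fold. Both Slc25a20 (0.12 to 0.41) and Crat (0.25 to 0.55) stayed positive under all 4 scalings, while Cpt1a and Cpt2 changed sign with the scaling. The lowest value of Slc25a20 lay within the per-set SD of 0.24.

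The acyl-CoA dehydrogenases, which open each round and are specialised by chain length, were all close to level. Acadvl, for very long chains, stood at 8.42 and 8.45. Acadl, for long chains, stood at 8.41 and 8.52. Acadm, for medium chains, stood at 9.61 and 9.68. The short-chain enzyme had the widest gap of these: Acads stood at 7.13 and 7.35, a difference of 0.22. Etfdh, which passes electrons from the dehydrogenases to ubiquinone, stood at 9.18 and 9.21.

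The later steps of the mitochondrial rounds were equally close. The trifunctional protein joins hydration, dehydrogenation and thiolysis of long chains, and its subunits are encoded by the neighbouring genes whose shared promoter is printed above. Hadha stood at 9.60 and 9.57, and Hadhb at 8.59 and 8.54; a second probe set of Hadhb stood at 8.33 and 8.28. The subunits' differences of -0.03 and -0.06 were 0.03 apart. Hadh, the dehydrogenase for shorter chains, stood at 9.92 and 10.03, and the thiolase gene Acaa2 at 10.23 and 10.31. The auxiliary enzymes for unsaturated fatty acids were at 8.30 and 8.21 for the reductase gene Decr1 and at 7.17 and 7.19 for the isomerase gene Eci1.

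All 11 genes of the mitochondrial rounds lay within 0.24 of zero, between -0.09 for Decr1 and 0.22 for Acads, with a median of 0.03. Their differences had an SD of 0.09, against 0.39 over all genes, which include many of lower level. The SD was 0.15 for the 7 hepatocyte markers, also of high level, and 0.15 for 12 further genes listed under mitochondrial oxidation. That list of 12 also holds Nudt7 and Nudt19, which encode peroxisomal enzymes. With the carnitine shuttle, the 15 mitochondrial genes had a median of 0.03, and 13 of them lay within 0.24. The sign of so small a median depended on scaling: it was 0.15 with each array centred on its own median, -0.06 after quantile normalization and -0.08 with a loess trend removed, while the median of all genes was 0.20, 0.02 and 0.04. Level matters here, because in 6 equal groups of genes of rising level the median of all genes ran from -0.20 in the dimmest to 0.24 and 0.16 in the brightest pair. Of the 11 genes, 9 changed sign among the scalings, and Acads and Hadh stayed positive.

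Ketone body formation was represented by Bdh1, the mitochondrial enzyme that interconverts acetoacetate and 3-hydroxybutyrate. It stood at 9.10 in the WT and 8.96 in the HLF-deficient tumour. The difference of -0.15 was negative under all 4 scalings, between -0.26 and -0.02. Acat1, which joins acetyl-CoA units at the entry of the pathway, differed by 0.12, and Bdh2, a cytosolic dehydrogenase, by -0.29. The 6 other ketone body genes measured were 3 positive and 3 negative, with a median of 0.02 that was -0.10 after quantile normalization. Oxct1 encodes the enzyme that activates ketone bodies for use as fuel, which healthy hepatocytes hardly express; it stood at 4.27 and 5.14, a difference of 0.87, and was named after its values were seen.

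**Figure D2:**
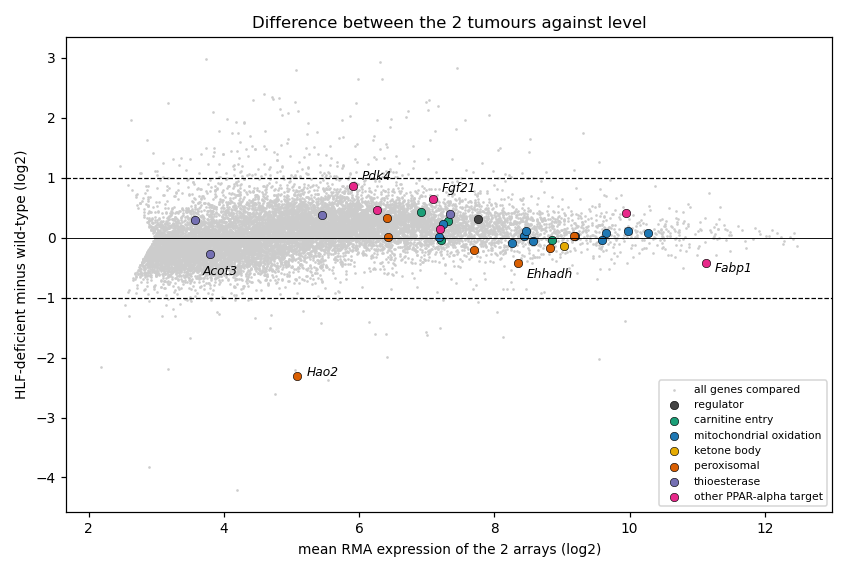
Difference between the tumours (HLF-deficient minus WT, log2, y axis) against the mean level of the 2 arrays (log2, x axis) for the 14575 genes compared (grey) and the 34 genes coloured by role; dashed lines mark 2-fold. Only Hao2 of the 34 lies outside the lines, at -2.31, and the 11 mitochondrial oxidation genes lie between -0.09 and 0.22.

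Among the peroxisomal genes, Hao2 stood alone. Hao2 encodes a peroxisomal oxidase of long-chain 2-hydroxy acids. Its level was 6.23 in the WT and 3.93 in the HLF-deficient tumour. It was 4.94-fold lower, at -2.31. Only 4 of the 14575 genes had a lower value, its rank among decreases being 5. Both levels were above the floor, and the difference lay between -2.38 and -2.18 under the 4 scalings. One probe set measured the gene. Its relative Hao1, which oxidises glycolate in the same organelle, differed by 0.10.

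The other 6 peroxisomal genes lay within 0.5 of zero, a range that holds 84.9% of all genes. Ehhadh, the L-bifunctional enzyme of straight-chain oxidation and a classical PPAR-alpha target, stood at 8.56 and 8.14, or 1.34-fold lower. It kept its sign under all 4 scalings, from -0.56 to -0.30. Hsd17b4, the D-bifunctional enzyme that acts on branched substrates, was level at 9.16 and 9.19, so that the differences of the bifunctional enzymes were 0.45 apart. The thiolase genes are close paralogues, and a probe set of one may read the other. Acaa1b stood at 7.80 and 7.60 and Acaa1a at 6.41 and 6.42. Acox2, the oxidase of branched fatty acids and bile acid intermediates, stood at 8.91 and 8.73. Pex11a, a membrane protein that drives division of peroxisomes, was the only peroxisomal gene of the 7 above the median of all genes, at 6.25 and 6.58.

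The median of the 7 peroxisomal genes was -0.17, or -0.08 without Hao2, against 0.03 for the mitochondrial genes. It was negative under every scaling, from -0.29 with the loess trend removed to -0.05 with the arrays centred. Acox2, Ehhadh, Acaa1b and Hao2 were negative and Pex11a was positive under all 4 scalings, whereas Acaa1a and Hsd17b4 changed sign. The lists are small and come from 2 arrays, so whether the peroxisomal and mitochondrial medians differ was not tested. A further 16 peroxisomal genes at or above the floor had a median of 0.03 (-0.11 after quantile normalization). Of these 16 genes, 0 passed 2-fold in either direction, against 1.86% of all genes compared. Among these Cat, the catalase that removes the peroxide formed by the oxidases, differed by 0.15, and the fatty acid transporter gene Abcd3 by -0.19.

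The acyl-CoA thioesterases, which release free fatty acids from acyl-CoA, lie side by side on chromosome 12, in the RefSeq order Acot2, Acot1, Acot4 and Acot3. Acot2, the mitochondrial form, stood at 7.14 and 7.53. Acot1, the cytosolic form and a strongly inducible PPAR-alpha target, was barely above the floor at 3.41 and 3.72. Acot4, a peroxisomal form, stood at 5.26 and 5.64, and Acot3, also peroxisomal, at 3.93 and 3.65. The values of Acot2, Acot1 and Acot4 were higher in the HLF-deficient tumour by 0.39, 0.30 and 0.38 and that of Acot3 lower, at -0.28. The neighbours Acot4 and Acot3 were 0.65 apart, and all 4 kept their sign under the 4 scalings. Because these paralogues resemble each other, their probe sets may not separate them fully.

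The further PPAR-alpha targets had the highest median of the groups with several genes, 0.44, and it stayed between 0.30 and 0.56 under the 4 scalings. Pdk4, the kinase that shuts pyruvate out of oxidation when fatty acids are burned, stood at 5.49 and 6.34, 1.81-fold higher, and ranked 322 among the increases of all genes. Fgf21, a hepatokine of fasting and stress, stood at 6.78 and 7.42, 1.56-fold higher. Both were under 2-fold and under it by every scaling, at most 0.98 and 0.76.

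Angptl4, a secreted inhibitor of lipoprotein lipase, stood at 6.03 and 6.49. Plin2, the coat protein of lipid droplets, stood at 9.74 and 10.16. Vnn1, the pantetheinase, differed least of the 6, at 7.13 and 7.28, and was -0.01 after quantile normalization. Fabp1, the liver fatty acid binding protein, went the other way. It stood at 11.34 and 10.92, 1.33-fold lower, and was negative under all 4 scalings. The Fabp1 and Acot4 promoters printed above each hold the relaxed repeat, and the differences of these genes were -0.41 and 0.38.

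Other cells of the tumour also express Plin2, Angptl4 and Pdk4, and markers of some of these cells differed between the samples. Of 7 macrophage markers, 5 were positive, with Cd14 at 1.86, Cd68 at 1.53 and a median of 0.57 over the 7. Clec4f (-0.37) and Vsig4 (-0.36), markers of resident Kupffer cells, were negative. The summed level of all 7 on the linear scale was 583 in the WT and 854 in the HLF-deficient tumour. Of 7 endothelial markers, 4 were positive (median 0.51; summed level 653 and 796), while Clec4g (-0.76), Tek (-0.13) and Stab2 (-0.06) were negative. Of 7 stellate and fibroblast markers, 6 were positive (median 0.23; summed level 585 and 679). For adipocytes, Adipoq was below the floor in both tumours and the median of the 5 markers compared was -0.11, with 2 positive and 3 negative. Fabp4 differed by 1.96, from 4.76 to 6.72, and the others lay between -0.51 (Retn) and 0.29 (Cidec). The summed level, which also counts Adipoq, was 95.3 and 172, a rise carried by Fabp4. Medians were -0.12 for 4 cholangiocyte and -0.23 for 5 skeletal muscle markers. Summed levels were 77.3 and 73.5 for cholangiocyte and 105 and 87.9 for muscle markers. These sums also count Cftr, Myh1 and Ttn, which lay below the floor in both tumours. The adipocyte median was positive under the 3 other scalings (0.02 centred, 0.05 quantile, 0.06 loess), and the cholangiocyte median was 0.0065, 0.0018 and -0.00030 in that order; the macrophage, endothelial, stellate and muscle medians kept their sign under all scalings. The part of these cells in the differences was not tested, and in bulk tissue a change in the share of a cell type and a change in RNA per cell cannot be told apart.

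**Figure D3:**
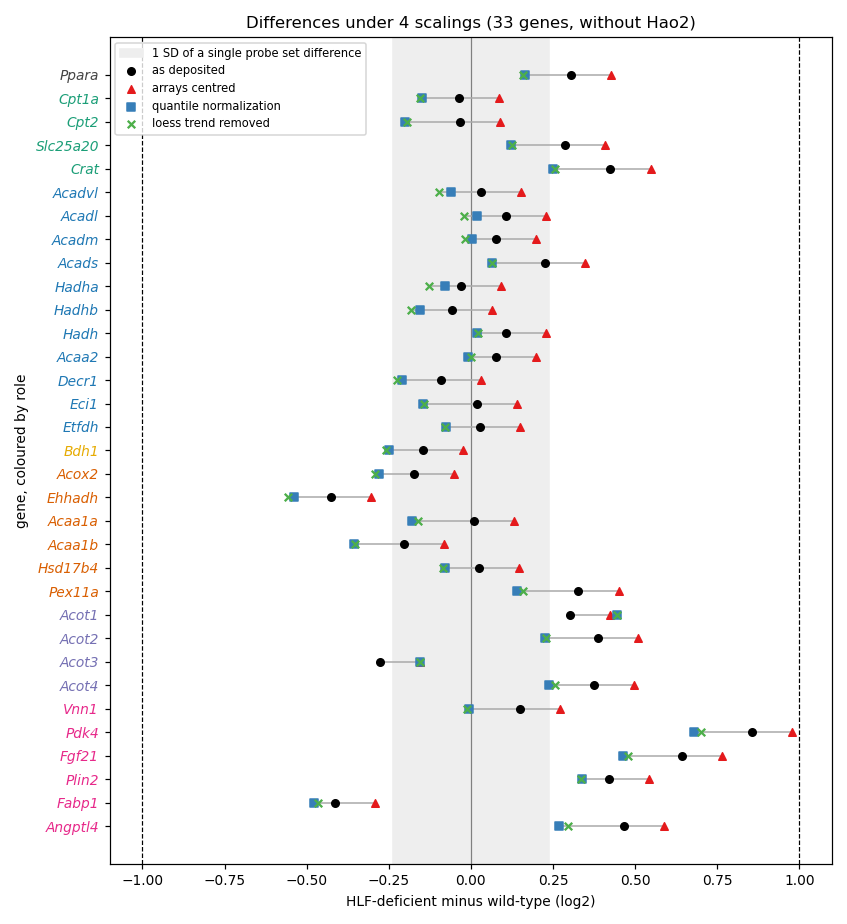
Difference between the tumours (HLF-deficient minus WT, log2, x axis) for 33 of the genes (y axis; Hao2 at -2.31 is off the scale) as deposited and under 3 other scalings; the grey band is the per-set SD of 0.24, and dashed lines mark 2-fold. Of all 34 genes, 13 were positive and 7 negative under all 4 scalings and 14 changed sign.

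To see whether the listed genes were typical of their pathway, 81 other genes of fatty acid oxidation, ketone bodies, peroxisomes, thioesterases, regulators and PPAR-alpha targets were looked up. A probe set of their own was found for 71, and 67 were at or above the floor. Their median was 0.05. As deposited, 2 were higher and 1 was lower by at least 2-fold, all just past the line; with the arrays centred the split was 3 and 0, after quantile normalization 0 and 1, and with a loess trend removed 0 and 0. Among all 14575 genes compared the calls were 218 higher (1.5%) and 53 lower (0.364%) as deposited. They were 294 and 32 with the arrays centred, 189 and 49 after quantile normalization, and 197 and 46 with the loess trend removed.

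Acot9, a mitochondrial thioesterase, had the largest positive value, with levels of 5.34 and 6.40. Txnip, a redox and glucose-uptake regulator, stood at 7.74 and 8.75. Cyp4a12a, a male-biased fatty acid omega-hydroxylase, stood at 7.55 and 8.43. These were 2.09-fold, 2.02-fold and 1.84-fold higher. The lowest values belonged to Cyp4a10, an omega-hydroxylase and classical PPAR-alpha target, with levels of 5.07 and 4.07, to Fabp2, the intestinal fatty acid binding protein, with 8.51 and 7.97, and to Cyp4a31, with 4.92 and 4.41. The PPAR-alpha targets outside the 34 went both ways, with 4 positive and 6 negative of 10 and a median of -0.13, or -0.01 with the arrays centred. The 12 further genes listed under mitochondrial oxidation all lay within 0.5 of zero, where 84.9% of all genes lie. Their median was 0.06 and turned to -0.05 after quantile normalization. Their values ran from -0.35 for Etfb, a subunit of the electron transfer flavoprotein, to 0.25 for Acad9.

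**Figure D4:**
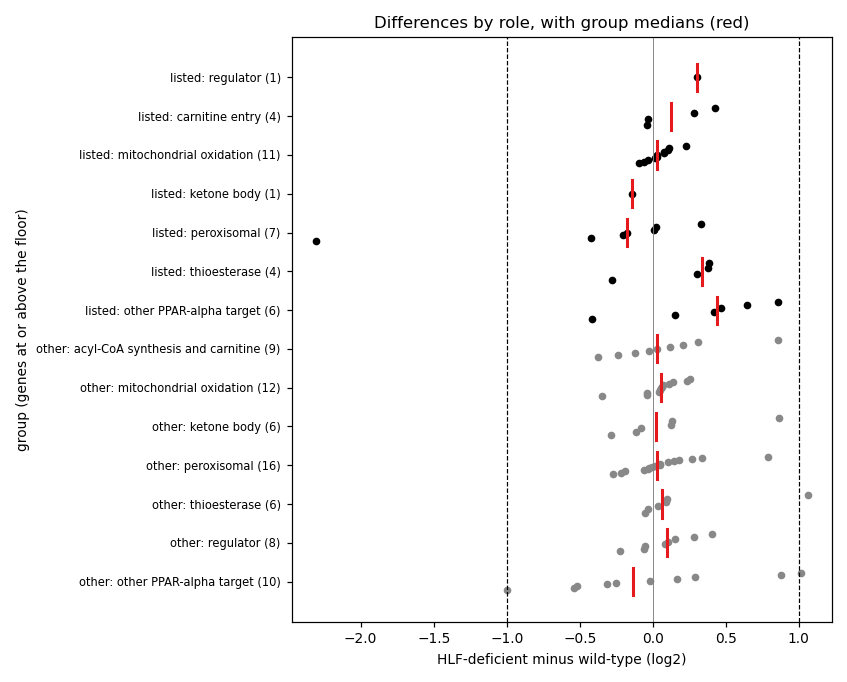
Difference between the tumours (HLF-deficient minus WT, log2, x axis) of each listed gene (black) and each other pathway gene (grey) at or above the floor, grouped by role with the number of genes in parentheses (y axis); red bars are group medians and dashed lines mark 2-fold. The median is -0.17 for the listed peroxisomal genes and 0.44 for the listed further PPAR-alpha targets, and -0.13 for the other PPAR-alpha targets.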

How the data were processed

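Expression in DEN-induced liver tumours was measured on 1 Affymetrix array per genotype, from total RNA extracted with Trizol. The deposited values are log2 expression made by the authors with RMA in Affymetrix Expression Console, per the submitters' processing notes; the log2 scale was read from the values. RMA compresses differences near background. No build or software version is given in the sources used here and, with 1 array a genotype, precision is limited by their number.

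Of 35556 probe sets, 21789 name 1 gene in the platform annotation, 1621 several and 12146 none; only the first kind was used. For the 999 genes with several probe sets, the brightest, by its mean of both columns, was taken. The floor was the 95th percentile of 1248 chemoreceptor probe sets. A difference of 1 on the log2 scale (2-fold) was the size rule. Alternatives were 3 other scalings (arrays centred; quantile; loess with a span of 0.4), the mean of probe sets, floors at the 90th and 99th percentile, no floor, values set to the floor, and rules of 1.5-fold and 4-fold. Named genes are all 34 genes, Hlf, Eif2s3y and Xist, and, of the other pathway genes, those beyond 2-fold and 3 per direction; others that are named serve as examples chosen after their values were seen. The genes and lists were chosen with earlier results of these data known. The rule was also run on simulated columns, made from the WT array with added noise and known changes. Such columns hold no spread between tumours, so the run cannot show how the rule performs between mice, and its outcome is not given here. Python 3.11.15, pandas 2.3.3 and statsmodels 0.14.6 were used.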

Additional observations from a re-analysis of the deposited data

How the results depend on the processing

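No paired analysis was possible because each genotype has 1 sample, and no sample could be left out. The count of genes lower by the size rule among the 34 was 1 in each of the 10 alternatives. The count higher was 0 in all but the 1.5-fold rule, where it was 2. Over all genes compared, 90.5% differed by less than 1.5-fold in either direction. For the other pathway genes, the count higher was 2 as deposited, 0 after quantile normalization, 0 with the loess trend removed, 0 under the 4-fold rule and 6 under the 1.5-fold rule; the count lower was 1 as deposited and 0 with the arrays centred, with the loess trend removed and under the 4-fold rule. The group medians each moved by less than 0.24 in the alternatives that were run for them. The median of the 34 genes turned from 0.05 to -0.03 after quantile normalization and -0.05 with the loess trend removed, and that of the other pathway genes from 0.05 to -0.05 in both. Centring moved the median of all genes from 0.07 to 0.20. Low signal limits Acot1 and Acot3, whose levels lay near the floor, and the HLF-deficient value of Hao2.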

Other observations

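The probe set that names Cyp4a10, Cyp4a31 and Cyp4a32 together was not used for any gene. It stood at 6.11 in the WT and 6.39 in the HLF-deficient tumour, or 0.29 higher, while the probe set naming Cyp4a10 alone stood at 5.07 and 4.07 and that naming Cyp4a31 alone at 4.92 and 4.41.

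Among the other pathway genes, Slc22a5, the plasma membrane carnitine transporter, stood at 4.16 and 5.02, and Acot8, a peroxisomal thioesterase, at 4.55 and 5.34. Their differences were 0.86 and 0.79, below the 2-fold rule.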
